A study of Mus musculus with 5 samples.

Results

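The miRNA content of uninjured mouse kidney was read from the array hybridized with kidney RNA of sham-operated mice, which was 1 of the 5 arrays of the series. Of the 1247 mouse miRNAs on this array, 219 (17.6%) were detected and 1028 were not. A probe counted as detected where its signal exceeded 3 times the error that the scanner software gave it. The signal of a miRNA is the sum over its own detected probes, in arbitrary units, and an undetected miRNA was set to 0.1.

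The series followed miRNAs after renal ischemia reperfusion injury (IRI). Male C57B/6 mice of 20 to 25 g, whose age the labels do not give, underwent bilateral IRI with 30 min of warm ischemia and were killed 6, 12, 24, or 48 h later. Sham mice had the operation without the vascular clamp, and the labels do not say how long after surgery their kidneys were taken. The labels give 8 mice per time point, and each group was measured on 1 array, with no statement on whether RNA was pooled. The spread between mice was therefore not measured and groups could not be tested against each other. Errors below, written after ±, are those of the scanner within 1 array. Per the methods, kidneys were perfused with cold saline before excision.

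miRNAs are short RNAs cut from hairpin precursors, and either arm of a hairpin, named 5p or 3p, can give a mature miRNA. The seed, bases 2 to 8 of the mature miRNA, pairs with target mRNAs, and miRNAs with the same seed form a family that can share targets. In kidney, miR-192 and miR-194 and the miR-200, miR-30, and miR-10 families are known from tubular epithelium and miR-126 from endothelium, whereas the let-7 family is abundant in most adult tissues.

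The sequences of the families that carried most of the sham signal are shown here because their seeds define the groups used below. Mature sequences were taken from RefSeq (GRCm38.p6), where 1026 of the 1247 miRNAs had a match, and the seed is in capitals. The 9 let-7 miRNAs detected in sham kidney share the seed GAGGUAG and differ from each other at 1 to 6 positions.
let-7b-5p: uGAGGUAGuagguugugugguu
let-7c-5p: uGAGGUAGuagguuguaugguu
let-7a-5p: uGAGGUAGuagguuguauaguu
let-7f-5p: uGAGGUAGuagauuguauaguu
let-7g-5p: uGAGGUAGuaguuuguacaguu
let-7d-5p: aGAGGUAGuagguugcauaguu
let-7i-5p: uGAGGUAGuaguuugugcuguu
let-7e-5p: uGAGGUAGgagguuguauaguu
miR-98-5p: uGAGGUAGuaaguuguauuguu

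The other families with several detected members among the 10 highest follow, in the order of their signal.
miR-30a-5p: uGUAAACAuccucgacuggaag
miR-30c-5p: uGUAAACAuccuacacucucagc
miR-30e-5p: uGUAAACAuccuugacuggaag
miR-29a-3p: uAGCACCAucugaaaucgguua
miR-29c-3p: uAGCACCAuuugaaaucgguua
miR-29b-3p: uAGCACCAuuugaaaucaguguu
miR-195a-5p: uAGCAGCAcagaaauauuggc
miR-15a-5p: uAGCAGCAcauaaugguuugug
miR-16-5p: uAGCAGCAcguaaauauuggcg
miR-15b-5p: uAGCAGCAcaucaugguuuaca
miR-497-5p: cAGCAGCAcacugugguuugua
miR-322-5p: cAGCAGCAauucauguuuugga
miR-429-3p: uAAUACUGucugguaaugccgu
miR-200b-3p: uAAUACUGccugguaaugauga
miR-200c-3p: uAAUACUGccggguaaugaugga
miR-10a-5p: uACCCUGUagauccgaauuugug
miR-10b-5p: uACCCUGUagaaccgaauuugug

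The remaining sequences are those of miRNAs among the 20 highest that stood alone in their seed family on the sham array.
miR-6366: aGCUAAGGggcccggggagcca
miR-3963: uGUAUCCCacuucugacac
miR-3473b: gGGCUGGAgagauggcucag
miR-22-3p: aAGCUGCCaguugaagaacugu
miR-21a-5p: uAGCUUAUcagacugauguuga
miR-126-3p: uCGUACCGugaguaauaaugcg
miR-5100: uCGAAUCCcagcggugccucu
miR-192-5p: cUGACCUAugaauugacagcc

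The sham signal was concentrated in few miRNAs. The summed signal of the array was 65266 ± 1685, of which 4 miRNAs held 50% and 52 held 90%. The 10 highest miRNAs held 63.6 ± 0.96% and the 20 highest 75.6%. Among detected miRNAs the median signal was 31.8, the quartiles were 9.61 and 161, and the range was 1.99 to 20386. Most detected miRNAs were therefore far below the few at the top. Ranks refer to array signal and not to numbers of molecules, since the probes of different miRNAs differ in length and base composition.

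miR-6366 had the highest signal by a wide margin, 20386 ± 1507, or 31.2 ± 1.63% of the sham total. miR-3963 followed with 7118 ± 556. Together these miRNAs held 42.1 ± 1.46%. Both carry registration numbers above 1000, as do 4 more of the 20 highest, miR-3473b (2410 ± 172), miR-5109 (1569 ± 120), miR-6243 (844 ± 67.4), and miR-5100 (811 ± 70.6).

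The other 14 of the 20 highest were long-known miRNAs, and 7 of them were let-7 miRNAs. let-7b-5p had a signal of 3162 ± 261, let-7c-5p of 2368 ± 210, and let-7a-5p of 1311 ± 108. Further down came let-7f-5p (860 ± 76.9), let-7g-5p (832 ± 73.9), let-7d-5p (785 ± 69.8), and let-7i-5p (578 ± 48.9), the last at rank 20. The let-7 miRNAs are known for repressing growth and cell cycle genes in differentiated cells.

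Tubular miRNAs stood next to them. miR-30a-5p, of a family abundant in renal epithelium, had rank 8 with 1279 ± 91.8, and miR-30c-5p had rank 19 with 693 ± 59.1. miR-192-5p, a miRNA of tubular epithelium, had rank 18 with 738 ± 61.5. The rest were miR-29a-3p (1042 ± 92.7), which is known to repress collagen genes, miR-22-3p (884 ± 79.3), the injury-responsive miR-21a-5p (831 ± 73.1), and the endothelial miR-126-3p (827 ± 60.4).

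**Figure D1:**
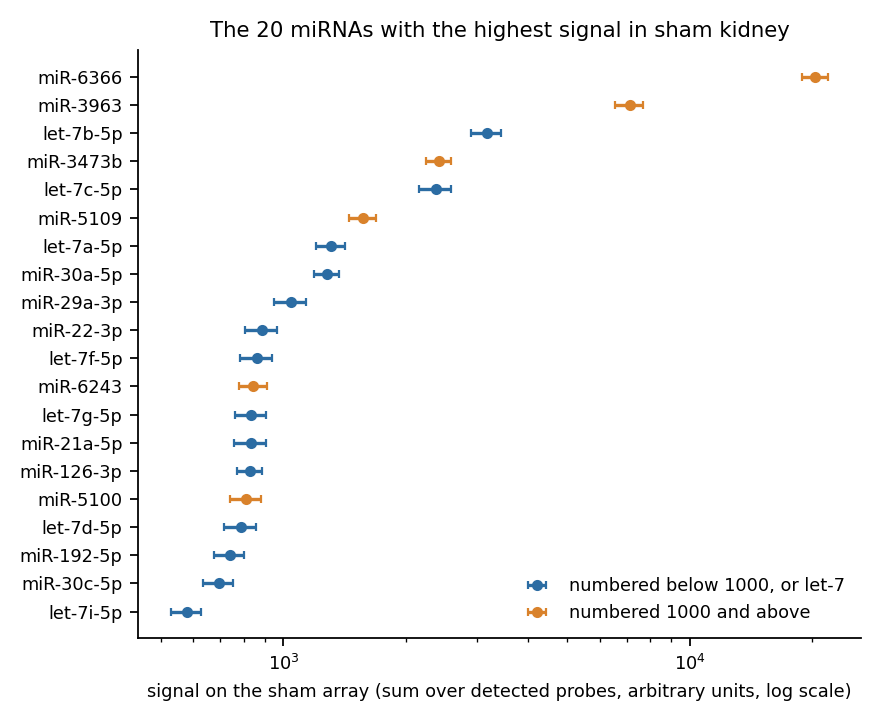
Signals of the 20 highest miRNAs on the sham array on a log axis in arbitrary units, with bars for the scanner error. miR-6366 and miR-3963 stand apart at 20386 and 7118, whereas the 10 miRNAs from miR-22-3p to miR-30c-5p lie between 693 and 884 with overlapping or touching error bars between neighbours.

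The order at the top was only partly resolved. Of the 20 gaps between a miRNA and the next lower one, 8 exceeded the combined scanner error of both. Neighbours that were not separated by this error included miR-3473b and let-7c-5p, let-7a-5p and miR-30a-5p, and each neighbouring pair from miR-22-3p at rank 10 to miR-30c-5p at rank 19. The scanner error was 7.12% to 8.97% of the signal for these miRNAs. The standard error over spots was smaller, 0.40% to 1.02%, and 18 of the gaps exceeded it. Spots of 1 array do not measure the spread between kidneys.

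The same miRNAs led most arrays. Of the 20 highest in sham, 16 were among the 20 highest of the 6 h array, 16 of the 12 h array, 18 of the 24 h array, and 19 of the 48 h array, and 14 were so on all 5 arrays. miR-6366 was first on every array. let-7b-5p had rank 3 in sham and rank 6, 7, 6, and 6 at 6, 12, 24, and 48 h. miR-21a-5p, in contrast, had rank 14 in sham and rank 9, 5, 3, and 3 afterwards, with signals of 831 in sham and 1577, 3976, 7885, and 4898 after IRI. The sham value of miR-21a-5p was the lowest of the 5, also after scaling by the spike-in controls (831 in sham against 1503 to 3707).

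Late-registered miRNAs were detected less often but held more of the signal, mostly through miR-6366 and miR-3963. Of the 449 miRNAs numbered 1000 and above, 58 (12.9%) were detected in sham, compared with 161 of 798 (20.2%) numbered below 1000 or named let-7. The 58 held 55.2 ± 1.18% of the sham signal, with 42.1% of the sham signal in miR-6366 and miR-3963 alone. The median signal of the 58 was 21.8, against 38.1 for the detected miRNAs of lower number. The probes of the detected late-registered miRNAs were GC-rich and short, counting all probes of each such miRNA. The median GC content of the probes was 65.5% for detected late-registered miRNAs and 54.8% for all late-registered miRNAs on the array, whereas it was 48.7% and 48.5% for the lower numbers. The longest probe of a detected late-registered miRNA had a median of 14 bases, and of 16 bases over all late-registered miRNAs. For the lower numbers it was 18 bases, both for detected and for all miRNAs. The part of base composition and probe length in these signals was not tested.

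For miR-3473b at rank 4, not shown here, the longest probe covered 16 bases with a GC content of 56.25%. The stretch read by the longest probe is in capitals in the following sequences of some of the 20 highest miRNAs, with miR-5100 at rank 16.
miR-6366: agcuaaggggCCCGGGGAGCCA
miR-3963: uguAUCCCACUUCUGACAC
miR-5100: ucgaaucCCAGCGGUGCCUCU
let-7b-5p: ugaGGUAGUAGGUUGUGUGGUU
let-7c-5p: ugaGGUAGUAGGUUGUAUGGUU
For miR-6366 the longest probe covered 12 bases with a GC content of 83.3%, and none of them belonged to the seed. For let-7b-5p it covered 19 bases with a GC content of 47.4% and included part of the seed. The let-7b-5p and let-7c-5p sequences differ at 1 position, which lies within the stretch that both longest probes bind. Cross-binding among the let-7 miRNAs was not measured, so the let-7 sum is better defined than the share of each member.

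The signal was next summed by seed. The 178 detected miRNAs with a RefSeq match held 92.9% of the sham signal and fell into 135 seed families, of which 111 had a single detected member and 24 had more. The 10 highest families held 73.6% of the signal with 30 detected members.

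The let-7 family was the highest family with several members. Its 9 detected members, of 11 on the array, summed to 10278, or 15.7 ± 0.63% of the sham signal, and let-7b-5p made up 30.8% of the family. let-7e-5p (355 ± 30.8) and miR-98-5p (27.4 ± 2.62) were its lowest detected members, whereas let-7k and miR-1961 were not detected. On the arrays of 6, 12, 24, and 48 h it held 12.6%, 8.61%, 11.9%, and 10.68%. Its share was thus highest on the sham array. In signal, let-7b-5p did not follow this order, with 3162 in sham and 3155, 3112, 4149, and 2218 at 6, 12, 24, and 48 h. A share falls when other miRNAs gain signal, and the totals of the other arrays were 77315, 124640, 137161, and 75370. The spike-in controls of the 12, 24, and 48 h arrays, which lay on another slide, were 2.08, 2.13, and 2.06 times those of sham, whereas at 6 h they were 1.05 times. Slide and time cannot be told apart for these later arrays.

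The miR-30 family, with miR-30a-5p, miR-30c-5p, and miR-30e-5p (282 ± 23.2), held 3.45 ± 0.19% in sham and between 2.15% and 3.79% on the other arrays. The family sums hold only miRNAs with a RefSeq match, so miR-30b-5p (97.4 ± 8.64) and miR-30d-5p (154 ± 11.1) are not in this one. The miR-29 family held 2.33 ± 0.16%, with miR-29a-3p above miR-29c-3p (365 ± 26.0) and miR-29b-3p (115 ± 10.8). The miR-15/16/195 family, known for restraining the cell cycle, had 6 of 10 members detected and held 1.88 ± 0.08%. Its members were close together, from miR-195a-5p (269 ± 22.8) to miR-322-5p (138 ± 10.67).

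The miR-200b/200c/429 family, which maintains the epithelial state by repressing Zeb1 and Zeb2, held 1.66 ± 0.09%, with miR-429-3p at 482 ± 34.4, miR-200b-3p at 445 ± 38.6, and miR-200c-3p at 156 ± 13.8. The miR-10 family, encoded within Hox clusters, held 1.37 ± 0.08%, with miR-10a-5p at 567 ± 43.8 and miR-10b-5p at 330 ± 25.3. The remaining families of the 10 highest were single detected miRNAs, namely miR-6366, miR-3963, miR-3473b, and miR-22-3p. Sham had the highest share of the 5 arrays for the let-7, miR-15/16/195, miR-200b/200c/429, and miR-10 families, which was also so with the highest probe, with the processed table of the authors, and without miR-6366 and miR-3963 or without miRNAs numbered 1000 and above. The signals of leading members did not follow this order. miR-429-3p had 482 in sham and 503 at 6 h, miR-10a-5p 567 and 583, and miR-195a-5p 269 and 267. Their signals at 24 h, on the other slide, were 733, 829, and 355. For miR-30 and miR-29 the sham share lay within the range of the other arrays.

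**Figure D2:**
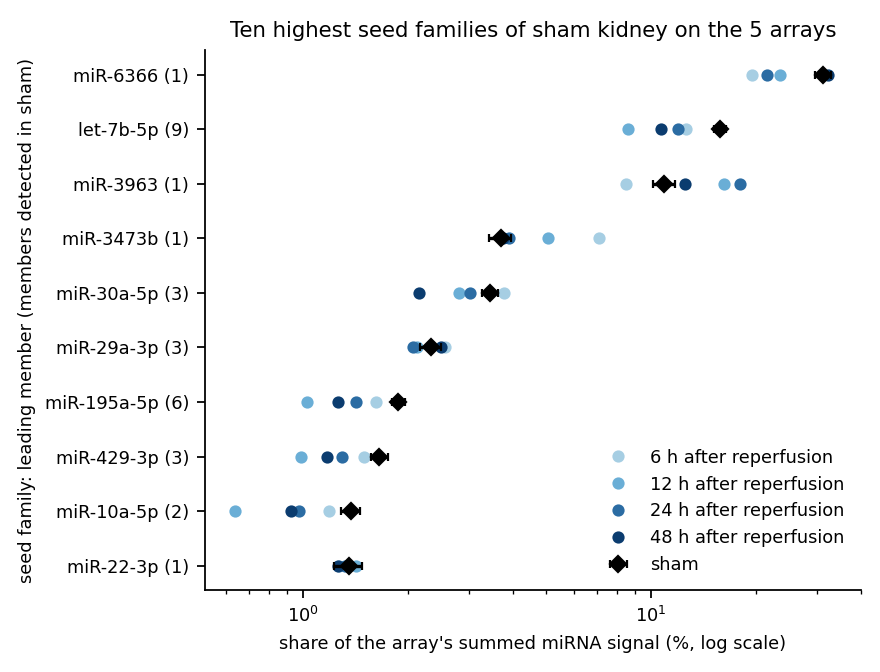
Share of the summed miRNA signal (%, log axis) held by the 10 highest seed families of sham kidney on each of the 5 arrays, with the scanner error for sham. The let-7 family held 15.7% in sham and 8.61% to 12.6% after IRI, whereas the sham diamond of the miR-29 family lies among the other arrays.

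Most hairpins with any detected arm gave signal from 1 arm only. Both arms of 451 hairpins were on the array, and for 300 of them neither was detected in sham. Of the remaining 151, the 5p arm alone was detected for 76, the 3p arm alone for 60, and both arms for 15. Where the detected arm was itself weak, such as miR-17-3p (4.72 ± 1.30), a lower second arm could lie below the detection limit. The 5p arm was the higher in 84 of 151 (55.6%, Wilson 95% interval 47.7% to 63.3%), an interval that includes equal use of both arms and covers the sampling of hairpins only. By name, 5p miRNAs held 30.8% of the sham signal and 3p miRNAs 13.6%. The other 55.5% belonged to 49 detected miRNAs with no arm in their name, among them miR-6366 and miR-3963. Without miR-6366 and miR-3963 the shares were 53.3% for 5p, 23.5% for 3p, and 23.2% for no arm.

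Where both arms were detected, 1 arm usually dominated, with a median absolute log2 ratio of 3.92. The endothelial miR-126 hairpin was the most one-sided, with 827 ± 60.4 for miR-126-3p and 3.82 ± 1.27 for miR-126-5p (log2 ratio of 5p over 3p −7.76 ± 0.49). The miR-30 hairpins favoured 5p. miR-30c reached a log2 ratio of 5.42 ± 0.21, miR-30a 4.07 ± 0.15, miR-30b 3.92 ± 0.25, and miR-30e 3.35 ± 0.19. miR-466i (4.10 ± 0.34) and miR-125a (2.93 ± 0.21) favoured 5p as well. The miR-200 hairpins favoured 3p, with −6.40 ± 0.25 for miR-200b and −4.45 ± 0.25 for miR-200a. miR-29c (−5.77 ± 0.32), miR-378a (−3.20 ± 0.21), and miR-199a (−3.17 ± 0.25) also favoured 3p. The miR-30 hairpins thus favoured the same arm, as did miR-200a and miR-200b, whose 3p arms have different seeds.

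Only 3 of the 15 hairpins had arms within 1 unit of each other on the log2 scale. miR-652 gave 77.7 ± 5.88 from 5p and 51.2 ± 4.97 from 3p. miR-140, known from cartilage, gave 35.9 ± 3.22 from 5p and 48.8 ± 4.34 from 3p. miR-1839 gave 11.9 ± 1.43 from 5p and 9.35 ± 1.22 from 3p, a log2 ratio of 0.35 ± 0.26. Each of the 15 differences exceeded its scanner error, although the arms of a hairpin are read by different probes.

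**Figure D3:**
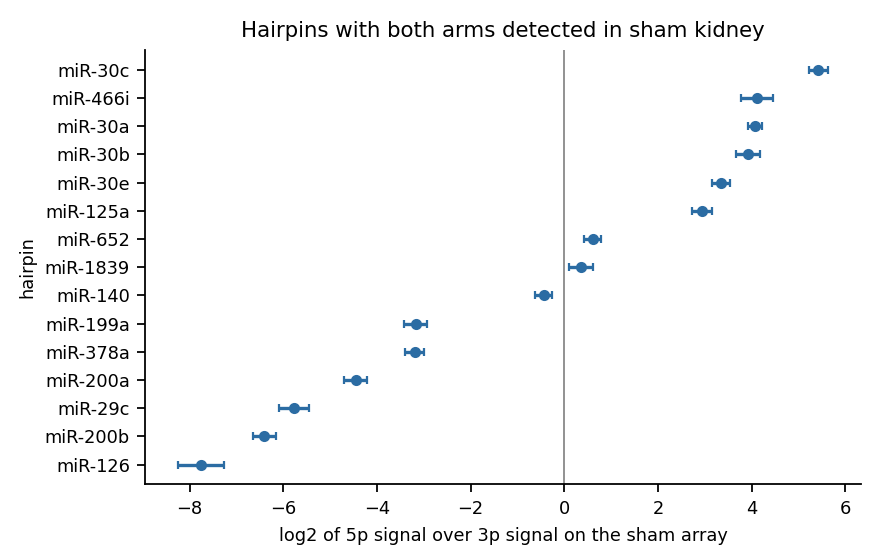
Log2 ratio of the 5p over the 3p signal for the 15 hairpins with both arms detected on the sham array, with bars for the scanner error. Points right of 0 have the higher signal from 5p. The miR-30 hairpins lie between 3.35 and 5.42 and the miR-200, miR-29c, and miR-126 hairpins between −7.76 and −4.45.

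The sham signals were set beside lists of miRNAs of kidney and of other tissues. These lists were chosen with earlier results of these data known, so they are no independent check of the tissue label. In whole tissue, fewer cells of a type and less miRNA per cell cannot be told apart. Of 16 kidney tubule miRNAs, 15 were detected, compared with 17.6% of all miRNAs on the array, and they held 8.58 ± 0.30% of the sham signal. The list held 8.40%, 5.99%, 6.91%, and 5.57% on the arrays of 6, 12, 24, and 48 h, so that sham and 6 h differed by less than the scanner error of sham. Without miRNAs numbered 1000 and above the list held 19.1% in sham and 19.4% at 6 h. Within it, miR-194-5p, encoded next to miR-192, had a signal of 148 ± 12.2, miR-200a-3p of 187 ± 15.4, and miR-141-3p of 36.3 ± 3.60. miR-204-5p was low at 7.26 ± 1.41, and its signals on the later arrays were 7.58, 15.8, 46.7, and 8.29. miR-215-5p, which shares its seed with miR-192-5p, was not detected on any of the 5 arrays.

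Of the other renal cell types, miR-126-3p of endothelium was bright, whereas stromal miRNAs were modest. All 5 smooth muscle and stroma miRNAs were detected, beside the 17.6% of all miRNAs, and together held 0.25%, with miR-199a-3p (94.2 ± 7.78) and miR-143-3p (41.5 ± 3.44) highest and miR-145a-5p at 4.27 ± 1.28. Leukocyte miRNAs held 0.07%. Myeloid miR-223-3p reached 24.8 ± 2.73 in sham and 55.7, 82.7, 39.5, and 41.7 at 6, 12, 24, and 48 h. Sham was the lowest array in signal but had the 24 h (18.6) and 48 h (20.3) arrays below it after spike-in scaling. miR-155-5p (8.66 ± 1.49), miR-146a-5p (9.63 ± 1.54), and miR-142-3p (4.74 ± 1.30) were low, and miR-142-5p and miR-150-5p were not detected. miR-451a, the defining miRNA of red blood cells, had a signal of 159 ± 11.9 in sham and 500, 234, 538, and 105 afterwards. miR-144-3p and miR-144-5p, encoded beside miR-451a, were not detected, and miR-486-5p was not analysed here.

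miRNAs of other organs were at or near 0. The hepatocyte miR-122-5p, all 7 heart and skeletal muscle miRNAs, both pancreas and neuroendocrine miRNAs, and 3 of 4 brain miRNAs were not detected in sham, where 82.4% of all miRNAs on the array were undetected. The remaining one, miR-128-3p, had a signal of 4.32 ± 1.29. Of 10 pluripotent cell miRNAs, miR-290-5p alone was detected, at 1.99 ± 0.64, the lowest detected signal of the array. Hypoxia-induced miR-210-3p was detected at 28.0 ± 2.84 in sham and at 25.0, 10.8, 15.1, and 8.37 at 6, 12, 24, and 48 h. Sham and 6 h differed by less than the combined scanner error.

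**Figure D4:**
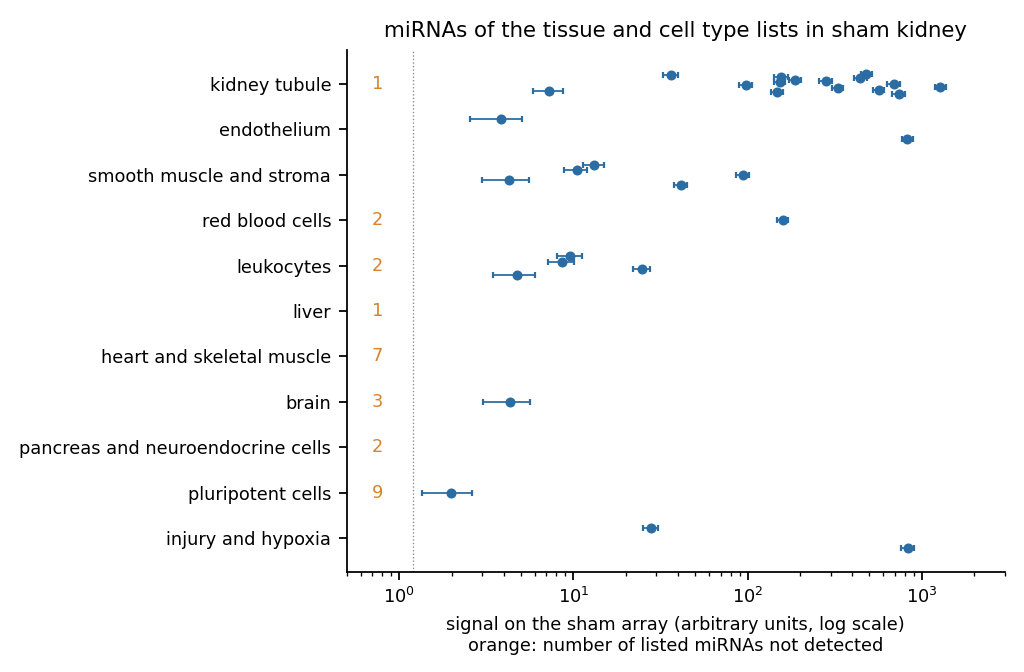
Signals on the sham array (log axis, arbitrary units) of the miRNAs of each tissue or cell type list, with bars for the scanner error and the number not detected in orange. The 15 detected tubule miRNAs reach from 7.26 to 1279, whereas no heart, skeletal muscle, liver, or pancreas miRNA was detected.

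Of 6 miRNAs that were also the subject of qRT-PCR, 3 were detected in sham, beside 17.6% of all miRNAs on the array. The highest of them, miR-210-3p, had rank 118 of the 219 detected. miR-214-3p had a signal of 13.2 ± 1.79 and miR-18a-5p, of the growth-promoting miR-17-92 cluster, of 6.34 ± 1.37. The p53 target miR-34b-3p, the neuronal miR-134-5p, and the epithelial and sensory miR-182-5p were not detected in sham. The other arm of the miR-34b hairpin, miR-34b-5p, was detected in sham at 6.83 ± 1.39. On the other arrays, miR-134-5p was detected at 6, 12, and 24 h (11.0, 20.1, and 4.90), miR-182-5p at 24 and 48 h (8.83 and 5.40), and miR-34b-3p at 24 h (9.56).

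Genomic clusters of hairpins were detected unevenly. Hairpins within 10000 bases of each other on 1 strand formed 61 clusters, of which 39 had a detected miRNA and 2 had all detected. Of these 2, the Mir2861 and Mir3960 cluster counted miR-2861 alone. Cluster counts and sums hold only miRNAs with a RefSeq match, so the detected miR-23b-3p (303 ± 24.5) and miR-3960 (143 ± 10.3) are not in them. The highest sum came from Mirlet7c-2 and Mirlet7b at chr15:85706603-85707403 (plus strand, within the lncRNA gene Lncppara), with 5530. let-7c-5p is also encoded by Mirlet7c-1 at chr16:77599672-77599693, so its signal cannot be assigned to 1 locus. The miR-429, miR-200a, and miR-200b cluster at chr4:156053905-156055750 (minus strand, within the lncRNA gene Gm13648) had 5 of 6 miRNAs detected, summing to 1127. The Mir30c-1 and Mir30e cluster at chr4:120769534-120772697 (minus strand, within the protein-coding gene Nfyc) had all 4 miRNAs detected. Over all miRNAs on the array, 17.6% were detected in sham.

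Large clusters were sparsely detected as a set but differed from each other. The 7 clusters with at least 10 miRNAs on the array held 160 different miRNAs, of which 12 (7.50%) were detected in sham, compared with 17.6% of all miRNAs on the array. In the imprinted cluster from Mir379 to Mir3072 at chr12:109709060-109747960 (plus strand), 2 of 66 were detected, miR-494-3p (101 ± 8.03) and miR-3072-5p (27.7 ± 2.74). The cluster from Mir743 to Mir465 at chrX:66776757-66839125 (minus strand) had 0 of 30 detected in sham and on every other array. The cluster from Mir770 to Mir136 had 0 of 23 detected in sham, and that from Mir290a to Mir295 had 1 of 11. The miR-17-92 cluster at chr14:115043671-115044506 (plus strand) had 5 of 11 detected. On chrX, the cluster from Mir363 to Mir106a had 3 of 10 detected, and that from Mir450b to Mir322 had 3 of 11. The miR-17-92 and the Mir363 to Mir106a clusters both count miR-19b-3p and miR-92a-3p.

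The single-copy miRNAs among the highest lie in varied settings. Mir6366 gives its mature miRNA from chr16:18165093-18165114 (minus strand) and Mir3963 from chr3:151023839-151023857 (minus strand), with no other gene span listed there. The mature miR-3473b lies at chr10:41670774-41670793 (plus strand) within the span of Ccdc162. The mature miR-126-3p lies at chr2:26591402-26591423 (plus strand) within Egfl7, an endothelial gene, and miR-21a-5p at chr11:86584120-86584141 (minus strand) within Vmp1. Exons and introns were not distinguished for these spans.

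The 6 h array shares slide and scan with the sham array and was compared with it by share. Of 209 miRNAs detected on both, 167 (79.9%) were within 2-fold, with a median log2 ratio of sham over 6 h of 0.06. At least 2-fold higher in sham were 9 (4.31% of those compared) and at least 2-fold lower were 33 (15.8%). Among the 42, those higher in sham were 21.4%. All 42 exceeded their scanner error, which the 2-fold limit and the detection rule ensure. With 1 array a group there is no replicate check. This balance depended on the scaling. Unscaled signals gave 4 higher and 42 lower, shares without miR-6366 and miR-3963 gave 15 and 24, and the processed table gave 38 and 23, with median log2 ratios of −0.18, 0.37, and 0.33. Of the 33 that were lower in sham, 20 were numbered 1000 and above, of 55 such miRNAs compared, and 13 were among the 154 others. Of the 9 that were higher in sham, 6 were numbered 1000 and above, so both directions held many late-registered miRNAs. The median GC content of the probes was 62.9% for the 33, 65.5% for the 9, and 51.5% for all 209. The part of probe composition in the differences was not tested.

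Neither direction held a tubule miRNA, with 0 of 15 at least 2-fold higher and 0 of 15 at least 2-fold lower in sham, beside 4.31% and 15.8% of all miRNAs compared. The processed table placed 1 of the 15 higher. The median share ratio of these 15 was 1.06. Of the 20 highest sham miRNAs, miR-5100 was at least 2-fold higher in sham (log2 ratio 1.11 ± 0.18, or 0.86 with unscaled signals), and miR-5109 (−1.94 ± 0.16) and miR-6243 (−1.68 ± 0.16) were lower. The red cell miR-451a was also lower in sham (−1.41 ± 0.15).

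Among miRNAs detected on all 5 arrays, the highest ratios in sham belonged to miR-760-3p (2.24 ± 0.24), miR-3099-3p (1.64 ± 0.24), miR-5097 (1.41 ± 0.17), miR-341-3p (1.31 ± 0.42), and miR-5100. For miR-760-3p the signals were 34.8 in sham and 8.72, 59.7, 123, and 11.6 at 6, 12, 24, and 48 h. Its shares were 0.053% in sham and 0.011%, 0.048%, 0.090%, and 0.015% afterwards. Sham was below the 12 h and 24 h arrays by signal and below the 24 h array by share. The lowest ratios belonged to miR-2861 (−2.52 ± 0.17), miR-3960 (−2.39 ± 0.15), miR-6538 (−2.21 ± 0.25), miR-188-5p (−2.16 ± 0.16), and miR-5109. The signals of miR-2861 were 26.6 in sham and 181, 290, 226, and 63.6 afterwards, and those of miR-5109 were 1569 in sham and 7114, 9244, 4809, and 4235. Sham was the lowest array for both, also with spike-in scaling.

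**Figure D5:**
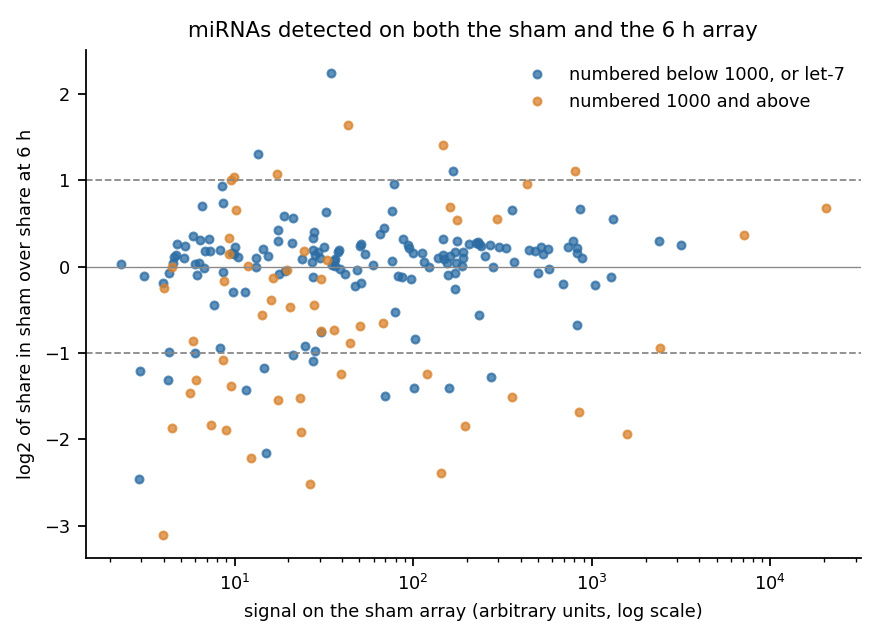
Log2 ratio of the share in sham over the share at 6 h for the 209 miRNAs detected on both arrays, against the sham signal on a log axis in arbitrary units, with dashed lines at 2-fold. Below the lower line lie 33 miRNAs, 20 of them numbered 1000 and above (orange). Above the upper line lie 9, of which 6 are numbered 1000 and above.

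Detection itself was largely shared between arrays. Of the 219 miRNAs detected in sham, 182 were detected on all 5 arrays, and these held 99.5% of the sham signal. At 6 h, 248 were detected, 39 of them not in sham, and 10 of the sham miRNAs were not detected there. Detected in sham alone were miR-503-5p (5.60 ± 1.34), miR-504-3p (5.17 ± 1.32), and miR-126-5p (3.82 ± 1.27). Undetected in sham but detected on all the other arrays were miR-296-5p, miR-714, miR-21a-3p, and miR-132-3p. The best probe of miR-296-5p was close to the limit, at 2.81 times its error in sham and 3.53 to 5.90 times on the other arrays. For miR-714, miR-21a-3p, and miR-132-3p it was 1.22, 1.04, and 1.48 times the error in sham. The minor arm miR-21a-3p had signals of 12.2, 28.2, 26.6, and 3.02 at 6, 12, 24, and 48 h.

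The best probes of miR-503-5p and miR-504-3p were 4.18 and 3.93 times their error in sham, and 1.27 to 2.43 times on the other arrays. Just above the detection limit of 3 were miR-126-5p (3.02 times), miR-1940 (3.12 times), and miR-290-5p (3.12 times). Just below it were miR-96-5p (2.91 times), miR-3102-5p.2-5p (2.87 times), and miR-669c-3p (2.86 times). Whether the miRNAs closest to the limit count as detected therefore rests on small differences in signal.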

How the data were processed

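Kidney RNA was hybridized to 1-colour Agilent mouse miRNA arrays (Release 19.0), with 1 array per group. Groups were taken from the sample labels. The authors deposited the intensity of each spot and probe as written by Agilent Feature Extraction 10.7.1.1, background-subtracted and not normalized between arrays, and a table of processed log2 values whose normalization is not given in the sources used here. That table served as an alternative only, since its scale and centring are unknown. The per-miRNA total of the software was not used because it holds signal of other probes.

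For each miRNA, the probe signals above 3 times their error were summed, once per probe, over 3105 probes of 10 to 40 spots. No miRNA spot was saturated. The software's own detection call, from the same scan and so no independent check, gave the same 219 miRNAs. Errors of sums and shares were propagated from the probe errors, whose median was 11.6% of the signal over the 388 detected probes. Shares divide by the array total with undetected miRNAs at 0.1. The number of arrays limits the precision.

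Seeds, sequences, and positions came from RefSeq (GRCm38.p6) by name and probe match, with 1015 matched by name and 11 by an older name and sequence. Hairpins of 1 chromosome were left out of the cluster analysis. The miRNAs named are the 20 highest, the 10 highest seed families, the 10 highest hairpins with both arms detected (all 15 are given), those detected in sham alone or in all but sham, the 5 highest and 5 lowest share ratios, the 3 on each side of the detection limit, the qRT-PCR miRNAs, and the tissue lists. Members and lists were chosen with earlier results of these data known. miR-1839, miR-140, miR-125a, miR-30b, and miR-199a fall outside the first 10 hairpins. The clusters were chosen after their values were seen.

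Alternatives were detection at 2 or 5 times the error, the highest probe, mean spot signals, normexp with an offset of 50, the processed table, undetected miRNAs at 0 or 1, leaving out miR-6366 and miR-3963 or late-registered miRNAs, and other scalings. The software was R 4.3.3 with limma 3.58.1, and Python 3.11.15 with scipy 1.17.1, pandas 2.3.3, numpy 2.4.6, and matplotlib 3.10.9. The summaries were tested on simulated data of 1247 miRNAs, where 5 of 5 checks passed. The qRT-PCR, histology, and creatinine measurements were not analysed here.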

Additional observations from a re-analysis of the deposited data

How the results depend on the processing

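The 20 highest miRNAs were the same 20, led by miR-6366 and miR-3963, with the highest probe, mean spot signals, normexp, or the processed table. The number detected was 250 with detection at 2 times the error and 180 at 5 times. Of 64 alternative values of the 9 main results, 38 stayed within the scanner error, the interval, or 1.5 times the count, and 26 moved.

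With the highest probe, the total was 47074, the 10 highest held 62.0%, miR-6366 and miR-3963 39.3%, and let-7 18.4%. Mean spot signals gave a total of 234826, on another scale by construction, and a tubule share of 9.46%. Normexp gave a total of 266228, also on another scale, with 56.7% for the 10 highest, 36.7% for miR-6366 and miR-3963, 14.2% for let-7, and 9.25% for the tubule list, and 13 miRNAs at least 2-fold lower in sham than at 6 h. With the processed table, miR-6366 and miR-3963 held 37.7% and let-7 17.9%, and 38 miRNAs were at least 2-fold higher in sham against 23 lower, so the balance of directions turned. Detection at 5 times the error left 4 higher. Unscaled signals gave 4 higher and 42 lower, and scaling by spike-ins 4 and 41.

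Without miR-6366 and miR-3963, let-7 held 27.2% and the tubule list 14.8%, and 15 were higher and 24 lower. Without miRNAs numbered 1000 and above, an alternative chosen after seeing the data, the 10 highest held 45.8%, let-7 35.1%, and the tubule list 19.1%, with 3 higher and 15 lower of 154. Smaller denominators raise these shares by construction. The cause of the other shifts was not tested. No paired analysis was possible because only 1 array represents a group. Signals within a few times the background error, such as those of the leukocyte miRNAs, limit what can be said about detection.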

Other observations

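The positive controls named hur and mr, whose targets the files do not state, were bright on the sham array. hur_2 had a signal of 109675 ± 5502, hur_6 of 12442 ± 785, hur_1 of 10121 ± 637, mr_1 of 4638 ± 256, and hur_4 of 2372 ± 136. At 6 h hur_2 had 111201 ± 5577 and hur_1 10816 ± 685.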
